A study of Homo sapiens with 24 samples.

Results

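OCI-AML2 cells, an established human acute myeloid leukaemia (AML) line, were compared after 24 h with ARM165 and after 24 h with AZ2, across every gene of the deposited table. The comparison is defined by treatment label and holds 8 of the 24 libraries of the series, 4 with ARM165 and 4 with AZ2. It and the gene lists below were chosen with earlier results of these data known. The same table holds 4 libraries of cells given DMSO, the solvent control, which carry no compound and are given beside the results. Another 12 libraries are of a different AML line, MOLM14, under the same 3 treatments. All groups are cultures with no labelled genetic change, and OCI-AML2 is 1 line, so nothing here speaks for AML cells in general. ARM165 and AZ2 are code names. The series is about signalling through phosphoinositide 3-kinase gamma and AKT and about a degrader of it, but the labels do not say which compound that is, and doses were not given, so the compounds are set side by side without a known match in dose. The labels do not say whether replicates were separate cultures, so the p-values rest on a spread between libraries that could be technical only.

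Phosphoinositide 3-kinases (PI3K) make a membrane lipid that recruits and activates AKT, a kinase that favours growth and survival. The gamma enzyme, made mostly in blood cells, pairs the catalytic subunit p110γ (PIK3CG) with p101 (PIK3R5) or p84 (PIK3R6). Active AKT keeps FOXO transcription factors out of the nucleus and raises the activity of mTORC1, which drives ribosome, nucleotide and lipid synthesis. A heterobifunctional degrader binds a target protein and a ubiquitin ligase at once, so that the target is destroyed. All values here are mRNA levels, given as normalized estimated reads, and say nothing of protein.

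Library sums of normalized estimated reads, in megareads (M), ran from 42.1 to 46.1 M with AZ2 and 42.2 to 43.8 M with ARM165. Depth before scaling was inferred by dividing each sum by the value taken for 1 read in that library. This inferred depth was 36.9 to 58.0 M with AZ2 and 37.5 to 55.7 M with ARM165. Between 19212 and 19461 symbols were above 0 in the AZ2 libraries and between 19247 and 19699 in the ARM165 libraries. Markers of the labelled cell type were present. The summed level of 11 myeloid leukaemia markers was 101727 to 108492 with AZ2 and 60749 to 63046 with ARM165. LYZ, CEBPA and SPI1 made up most of it, and LYZ alone had means of 45416 with AZ2 and 19744 with ARM165. By the test given below, 3 of the 11 were higher with ARM165, 6 lower and 2 not called. Over all genes tested, 34.5% were higher and 31.4% lower. MPO was near 0 in both groups (means of 15.6 with AZ2 and 6.79 with ARM165). Sums over marker lists of other lineages were 758 to 991 against 575 to 720 for T and NK cells (11 genes, mostly NKG7), 82.4 to 119 against 78.4 to 105 for B cells (7 genes), 718 to 829 against 377 to 524 for erythroid cells and megakaryocytes (13 genes, mostly EPOR), and 44.1 to 102 against 41.6 to 64.5 for epithelial cells and fibroblasts (11 genes), AZ2 first. Transcripts of the mitochondrial genome took 7.75 to 8.63% of the estimated reads with AZ2 and 5.02 to 5.91% with ARM165, and their part in the results was not tested. In all comparisons of bulk RNA, fewer cells of a kind and less RNA per cell cannot be told apart.

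The transcriptome of ARM165-treated cells differed from that of AZ2-treated cells at about as many genes as it differed from DMSO. A gene was called when limma's adjusted p for the log2 change, ARM165 minus AZ2, was under 0.05. Of 15377 genes tested, 10124 were called (65.8%), of which 5300 were higher with ARM165 (34.5%) and 4824 lower (31.4%). Changes of more than 2-fold, tested against that fold with limma's treat, were called for 2328 genes (15.1%), 1277 higher (8.30%) and 1051 lower (6.83%). The values of the 4 ARM165 libraries did not overlap those of the 4 AZ2 libraries at 9443 genes (61.4%). The median size of the log2 change was 0.66 with a median standard error of 0.12, and the median change was 0.046. The deposited values were already scaled, so this median and the balance of calls cannot show whether RNA rose or fell as a whole. The first principal component of the 8 libraries held 60.9% of their variance and separated the treatments. Set against DMSO in the same fit, ARM165 gave 10125 calls (65.8%) and AZ2 gave 17 (0.111%). These comparisons share libraries, so their values are only given side by side. AZ2 differed little from the solvent in this table, and the size of most ARM165 minus AZ2 values below is close to that of ARM165 minus DMSO.

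**Figure D1:**
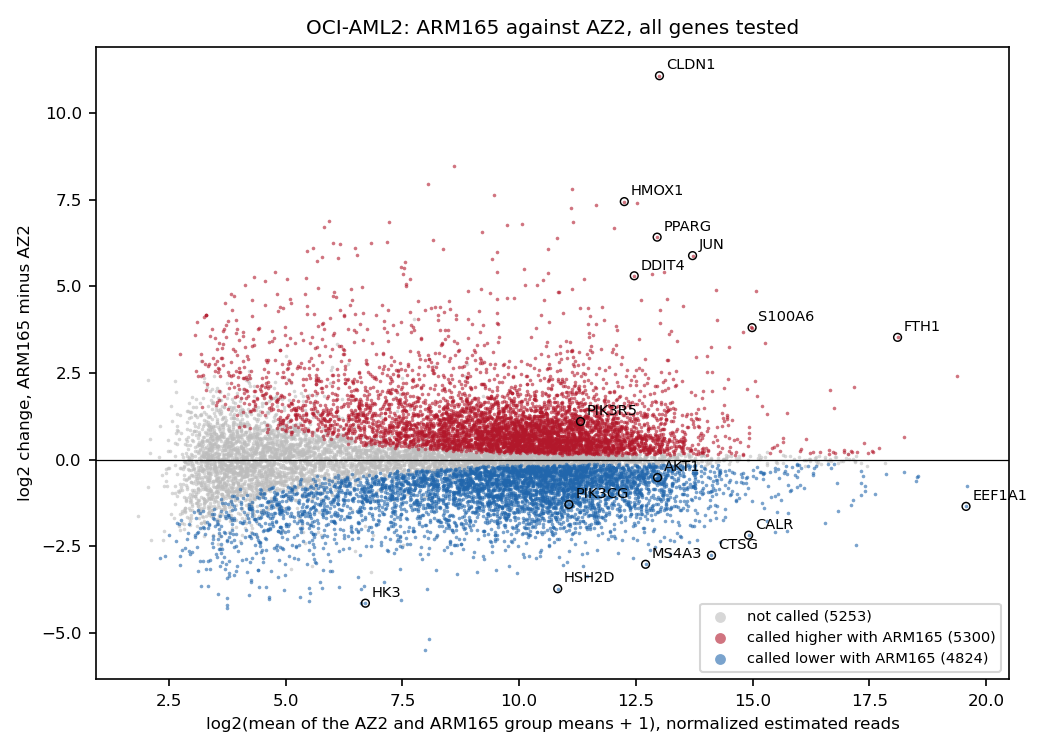
Each point is 1 of the 15377 genes tested; the x axis is log2 of the mean level of the AZ2 and ARM165 groups plus 1 and the y axis is the log2 change, ARM165 minus AZ2, with 4 libraries a group. Called genes (5300 red, 4824 blue) lie on both sides of 0 at every level, and CLDN1 stands highest at 11.08.

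The mRNA of PIK3CG, the catalytic subunit at the centre of the series, was lower with ARM165, and that of its p101 partner PIK3R5 was higher. PIK3CG read 3047, 3080.4, 2919 and 3147 with AZ2 and 1180.2, 1259.7, 1257 and 1259.7 with ARM165. No ARM165 library reached the lowest AZ2 library, and DMSO stood at 3084 ± 199 (mean ± SD, n = 4 here and below). The log2 change was -1.30 ± 0.057, adjusted p = 2.25e-11 (± SE, limma's moderated test with Benjamini-Hochberg adjustment over all genes tested, here and below). PIK3R5 read 1698, 1703, 1623 and 1474 with AZ2 and 3475, 3413, 3559 and 3443 with ARM165, with no overlap and a log2 change of 1.10 ± 0.07, adjusted p = 1.35e-09. PIK3R6, the other adaptor of the gamma enzyme, was scarce and variable at 55.6, 57.9, 104 and 42.0 with AZ2 and 28.2, 77.4, 57.3 and 38.2 with ARM165. Its groups overlapped, and its change of -0.38 ± 0.32, adjusted p = 0.319 was not called, with a 95% interval of -1.07 to 0.31.

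Of the other catalytic subunits, PIK3CD, the delta enzyme of blood cells, and PIK3CB, the beta enzyme, had log2 changes of -1.20 ± 0.076 and -0.94 ± 0.073. PIK3CA, the alpha enzyme, moved the other way, at 143 ± 26.3 with AZ2 and 574 ± 35.5 with ARM165 (2.01 ± 0.17, adjusted p = 2.97e-08). PIK3C3, the class III kinase that serves autophagy and vesicle traffic, was also higher (1.51 ± 0.14). The class IA regulatory subunit PIK3R2 was lower (-1.27 ± 0.082). Over the PI3K list, 4 of 14 measured members were higher, 6 lower and 4 not called, with a median change of -0.30. Subunits of the family therefore stood in both directions. Over all genes tested, 34.5% were higher and 31.4% lower, and every list count here and below stands beside those shares: a count near them is not a result about the list.

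AKT1, the most widely made of the AKT kinases, read 9054, 9120.2, 9556 and 9984 with AZ2 and 6289, 6947, 6787 and 6266 with ARM165, and all 4 ARM165 values lay below all 4 AZ2 values (-0.52 ± 0.061, adjusted p = 1.58e-06). AKT2, best known for insulin signalling, read 1765, 1885, 1874 and 1847 with AZ2 and 1063, 1271, 1231 and 1079 with ARM165, again without overlap (-0.67 ± 0.081, adjusted p = 2.28e-06). PHLPP2, a phosphatase that removes a phosphate from AKT, was higher (1.37 ± 0.11). INPP5D, which encodes the blood-cell phosphatase SHIP1, was lower (-1.18 ± 0.082). The list of AKT kinases and opposing phosphatases had 6 of 12 measured members higher, 4 lower and 2 not called.

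**Figure D2:**
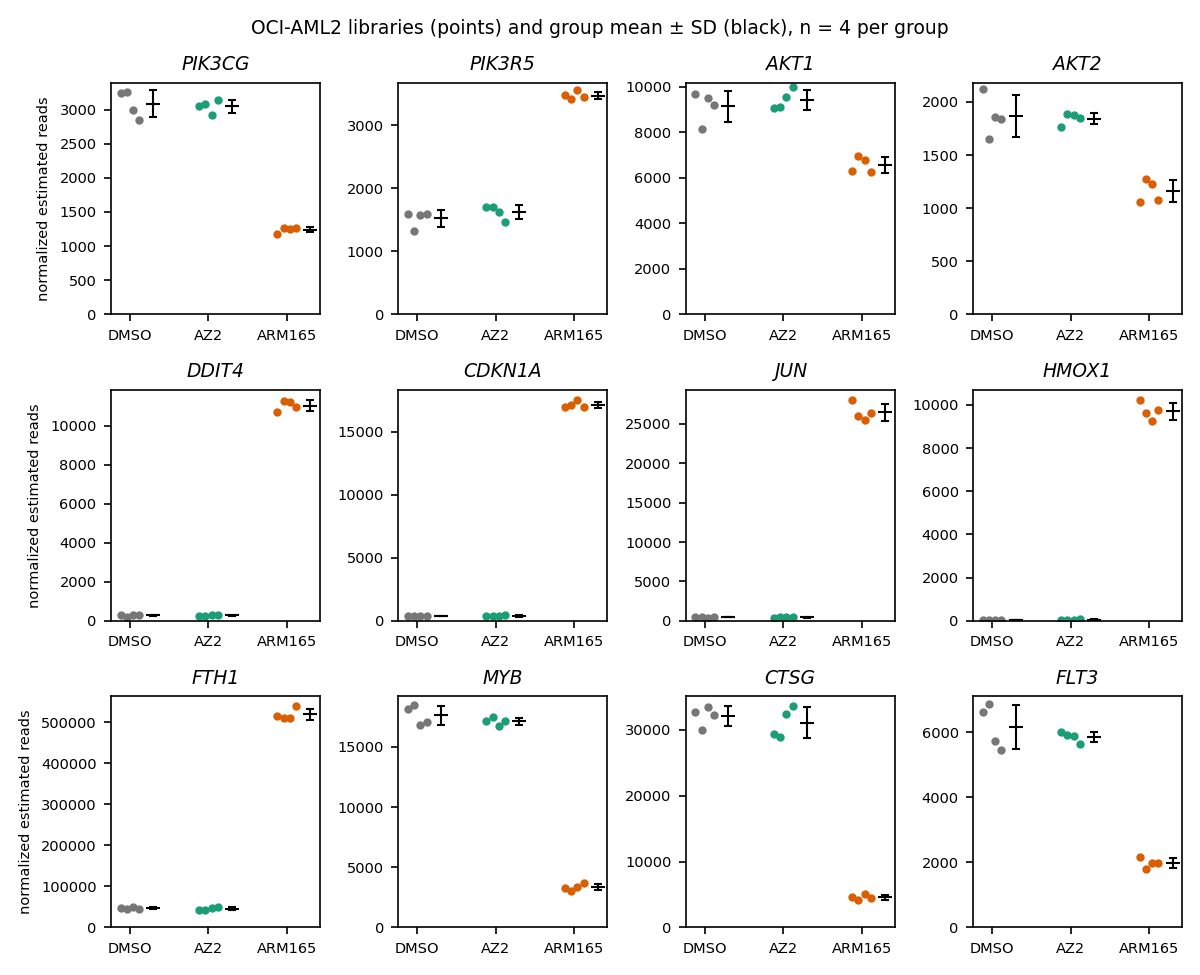
Levels in normalized estimated reads (linear axis from 0) of 12 genes in each OCI-AML2 library, with 4 points per treatment and the group mean ± SD in black. In each panel the 4 ARM165 points lie clear of the 4 AZ2 points, while DMSO and AZ2 points lie near each other.

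Genes of the integrated stress response were higher with ARM165 almost throughout. In this response the transcription factor ATF4, and downstream of it CHOP (DDIT3), switches on genes of amino acid supply, feedback and cell death. Of the ATF4 and CHOP list, 26 of 27 measured members were higher, 0 lower and 1 not called, and 20 higher and 0 lower passed the 2-fold test. The median log2 change was 1.98, against 0.046 over all genes. ATF4 itself read 53109, 55457, 57571 and 59026 with AZ2 and 238233, 234868, 243682 and 248103 with ARM165 (2.10 ± 0.049), and DDIT3 read 929, 1049.8, 1096 and 1036 with AZ2 and 21994, 22955, 22748 and 21748 with ARM165 (4.44 ± 0.065). ATF3, a stress-induced repressor, read 154, 154, 136 and 127 with AZ2 and 4232, 4178, 4419 and 4561 with ARM165 (4.92 ± 0.11, adjusted p = 1.35e-14). No library of either group came near the other for these genes. CTH, which makes cysteine, had a mean of 115 ± 30.4 with AZ2 and 1154 ± 64.3 with ARM165 (3.36 ± 0.20).

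DDIT4 (REDD1) and SESN2, which are ATF4 targets that hold back mTORC1, were among the steepest. DDIT4 read 241, 272, 303 and 301 with AZ2 and 10684, 11279, 11214 and 10974 with ARM165, with 281 ± 47.4 in DMSO (5.31 ± 0.11, adjusted p = 8.36e-15). SESN2, a leucine-sensing sestrin, read 260.4, 307, 366 and 318 with AZ2 and 6629, 6691, 6782 and 6535 with ARM165 (4.42 ± 0.10, adjusted p = 2.23e-14). All ARM165 values of both genes lay far above all AZ2 values. SESN3, a sestrin known as a FOXO target, went the other way (-1.57 ± 0.12). The list of mTOR complexes, TSC and sestrins had 15 of 24 measured members higher, 3 lower and 6 not called and a median of 0.49.

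Promoter sequences of 2 members of the ATF4 list are shown because they hold the 8-letter core of the C/EBP-ATF element, TGATGNAA, that ATF4 dimers are known to bind. They are taken from RefSeq on GRCh38.p14, are the 250 bases before the annotated start read 5′ to 3′ on the gene's strand, and have the matching letters in capitals. ASNS, which encodes asparagine synthetase, lies on the minus strand at chr7:97872409-97872658, the first of its 2 starts in the RefSeq table to hold this core. CHAC1, which encodes an enzyme that breaks down glutathione, lies on the plus strand at chr15:40953221-40953470, with the match on the opposite strand (reading TTGCATCA).
ASNS: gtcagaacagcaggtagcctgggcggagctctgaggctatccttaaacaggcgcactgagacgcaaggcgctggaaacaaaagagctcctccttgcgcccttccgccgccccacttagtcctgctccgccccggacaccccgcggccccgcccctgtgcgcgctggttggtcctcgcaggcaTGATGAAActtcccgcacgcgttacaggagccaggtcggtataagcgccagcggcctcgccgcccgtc
CHAC1: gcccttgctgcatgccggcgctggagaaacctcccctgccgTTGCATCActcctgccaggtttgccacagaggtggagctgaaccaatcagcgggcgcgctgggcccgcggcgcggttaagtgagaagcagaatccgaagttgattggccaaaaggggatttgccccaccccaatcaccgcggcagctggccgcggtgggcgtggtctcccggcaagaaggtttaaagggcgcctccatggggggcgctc
Both genes were higher with ARM165. ASNS had 3773 ± 169 with AZ2 and 11925 ± 417 with ARM165 (1.66 ± 0.071, adjusted p = 1.63e-11), and CHAC1 had 72.0 ± 19.6 with AZ2 and 1819.5 ± 227 with ARM165 (4.67 ± 0.19, adjusted p = 7.73e-12). Searched on both strands, TGATGNAA was in the promoters of 6 of the 22 ATF4 list members that had one in the table, and in 3.14% of all 35116 promoters. A member was counted if any of its promoters matched, while the 3.14% counts promoters, so the 2 shares are in unlike units. A match describes these letters in this window and is not a measured site. ASNS, CHAC1, MCM6 and ISG15 are named for their motif, outside the rule that named the other genes.

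Genes of amino acid metabolism stood on both sides. Among serine, one-carbon and asparagine genes, 10 of 16 measured members were higher, 5 lower and 1 not called; ALDH1L2, a mitochondrial folate enzyme, was higher (1.94 ± 0.073), while the cytosolic SHMT1 (-1.69 ± 0.07) and TYMS, thymidylate synthase (-1.92 ± 0.067), were lower. Aminoacyl-tRNA synthetases, which charge tRNAs with amino acids, had 12 of 20 measured members higher, 7 lower and 1 not called. WARS, for tryptophan, read 2051, 2018, 2036 and 2058 with AZ2 and 10901, 11540.4, 11215 and 11369 with ARM165 (2.46 ± 0.045), and SARS, for serine, had 2876 ± 68.4 with AZ2 and 12517 ± 427 with ARM165 (2.12 ± 0.046). FARSA, for phenylalanine, was lower (-1.20 ± 0.068).

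Chaperone genes of the endoplasmic reticulum (ER) and of heat shock were mostly lower, with 5 of 23 measured members higher, 16 lower and 2 not called and a median of -1.0. HSPA5 (BiP), the main chaperone of the ER, stood apart from them at 56769.9, 56944, 60262 and 57034 with AZ2 and 169745, 142596, 170444 and 161928 with ARM165, higher without overlap (1.48 ± 0.061, adjusted p = 1.05e-11). DNAJB9, an ER co-chaperone that works with BiP, was higher as well (1.45 ± 0.17). CALR, the calcium-binding lectin chaperone of the same compartment, read 49999, 49522, 52212 and 51102 with AZ2 and 11209.6, 10746, 12069 and 10582 with ARM165 (-2.19 ± 0.051, adjusted p = 2.39e-14), and SDF2L1 was lower to a like extent (-2.17 ± 0.075). The list thus holds both directions within 1 compartment. Of chaperonin and proteasome subunits, 10 of 33 measured members were higher, 15 lower and 8 not called. Among them PSMC6, an ATPase of the proteasome, was higher (1.07 ± 0.073), and PSMB2, a core subunit, and CCT6A, a chaperonin subunit, were lower (-1.01 ± 0.065 and -1.0 ± 0.064).

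Of the called genes with a mean of at least 50 in either group, the largest change was that of CLDN1, a tight-junction protein more usual in epithelia. It read 9.81, 6.83, 7.31 and 3.65 with AZ2 and 17790.4, 14453, 16261 and 17291 with ARM165, and DMSO stood at 9.25 ± 7.34. The log2 change was 11.08 ± 0.55, adjusted p = 7.70e-11. Other genes near 0 or low with AZ2 and high with ARM165 were ITPKA, an inositol trisphosphate kinase (38.3 ± 9.69 with AZ2 and 4487 ± 364 with ARM165), ARVCF, a catenin (34.2 ± 28.0 with AZ2 and 4419 ± 268 with ARM165), TM4SF19, a tetraspanin-like membrane protein (6.47 ± 2.94 with AZ2 and 1404 ± 79.5 with ARM165), KLHDC7B (39.6 ± 12.7 with AZ2 and 6419 ± 1184 with ARM165) and ABLIM3, an actin-binding protein (2.10 ± 3.23 with AZ2 and 525 ± 64.5 with ARM165). Their log2 changes lay between 6.87 and 7.95; these rises, and the falls named by size below, were taken only among genes whose groups did not overlap. KCNE1B (1.70 ± 2.07 with AZ2 and 778 ± 77.7 with ARM165) shares near-identical sequence with KCNE1, so its reads cannot be placed with certainty. The pseudogene XRCC6P1 was listed at 0 in all 4 AZ2 libraries and at 135, 108, 142 and 95.5 with ARM165, and it shares sequence with XRCC6.

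HMOX1, FABP3 and PPARG were among the largest rises with a mean of at least 5000 in either group. HMOX1, which breaks down haem, read 44.7, 42.7, 63.7 and 72.6 with AZ2 and 10199.8, 9604, 9259 and 9753 with ARM165 (7.45 ± 0.15, adjusted p = 7.00e-15). FABP3, a fatty acid binding protein, read 62.6, 109, 69.8 and 47.7 with AZ2 and 11765, 12148, 11593 and 11609.6 with ARM165 (7.39 ± 0.23, adjusted p = 4.55e-13). PPARG, a nuclear receptor for lipids, read 132, 176, 224 and 211 with AZ2 and 15877, 14906, 15427 and 16638 with ARM165 (6.42 ± 0.24, adjusted p = 3.31e-12). These 3 genes were at low levels in every AZ2 and DMSO library. FTH1, the heavy chain of ferritin and among the most abundant mRNAs, read 42600.3, 42047, 46633 and 49298 with AZ2 and 516443, 511836, 511522 and 539499 with ARM165 (3.53 ± 0.06, adjusted p = 1.00e-15); it has many processed pseudogenes, so the share of its own locus is uncertain. STEAP3, a reductase of iron uptake, was lower (-2.18 ± 0.11). Of the ferritin and iron list, 6 of 14 measured members were higher, 6 lower and 2 not called, with a median of -0.076.

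Of NRF2 and antioxidant targets, 13 of 18 measured members were higher, 2 lower and 3 not called, with OSGIN1 (3.0 ± 0.25) high and PRDX1, a peroxiredoxin, low (-0.86 ± 0.058). Of the autophagy list, 16 of 23 measured members were higher, 3 lower and 4 not called. GABARAPL1, which coats forming autophagosomes, had 316 ± 31.1 with AZ2 and 5555 ± 222 with ARM165 (4.14 ± 0.09, adjusted p = 1.07e-14), and the cargo receptor OPTN had 77.2 ± 17.1 with AZ2 and 880.3 ± 139 with ARM165 (3.51 ± 0.18), while ATG7, the enzyme that activates the conjugation step, was lower (-1.12 ± 0.11). Lysosome genes had 14 of 28 measured members higher, 9 lower and 5 not called; TFE3, a transcription factor for lysosome genes, and PSAP, the precursor of the saposins, were higher (2.60 ± 0.078 and 2.52 ± 0.06), and GLA, alpha-galactosidase, was lower (-1.41 ± 0.066).

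Immediate early genes and genes fed back on by ERK, the kinase of the RAS pathway, were higher more often than lower, with 19 of 28 measured members higher, 4 lower and 5 not called. JUN, a subunit of AP-1, read 403, 446, 466 and 469 with AZ2 and 27971, 25928, 25507 and 26410.4 with ARM165, and its 4 DMSO libraries read 452, 458, 429 and 451 (5.89 ± 0.061, adjusted p = 9.12e-18). PHLDA1, induced by many growth and stress signals, read 75.8, 92.6, 77.0 and 72.5 with AZ2 and 8173, 7816, 8098 and 9129 with ARM165 (6.69 ± 0.13, adjusted p = 4.20e-15). Neither gene had overlapping groups. ETV4 and SPRY1, known as outputs of ERK signalling, were lower (-1.18 ± 0.087 and -0.92 ± 0.17). Short-lived regulators, which include KLF, BTG and TOB factors, had 20 of 23 measured members higher, 2 lower and 1 not called (median 1.79). ZFP36L1, which destabilises AU-rich mRNAs, was at 31.3 ± 9.82 with AZ2 and 919 ± 46.7 with ARM165 (4.88 ± 0.24), SERTAD1 at 398 ± 24.6 with AZ2 and 5976 ± 372 with ARM165 (3.91 ± 0.074), and ZFP36L2, a relative of ZFP36L1, was lower (-1.60 ± 0.052).

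FOXO factors and their induced targets, the genes that AKT is known to hold down, had 15 of 21 measured members higher, 4 lower and 2 not called, with a median of 0.82. KLF6 was at 193 ± 13.5 with AZ2 and 2238 ± 106 with ARM165 (3.53 ± 0.094, adjusted p = 8.63e-14). TNFSF10, the death ligand TRAIL and also a known FOXO target, fell on the other side at 361 ± 26.9 with AZ2 and 76.4 ± 16.5 with ARM165 (-2.25 ± 0.15, adjusted p = 2.56e-09). The known targets thus did not all move in 1 direction.

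Genes of cell division were lower with ARM165 almost without exception. Of 40 genes of the replication origin and fork, 39 were lower and 0 higher, with a median log2 change of -1.60. RPA2 was the member not called. Of 40 mitosis genes, 40 were lower, with changes from -1.96 to -0.68 and a median of -1.37. Of 25 nucleotide synthesis genes, 23 were lower and ADSS, of adenylate synthesis, was higher (0.41 ± 0.067). Over all genes tested, 31.4% were lower.

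UHRF1, which keeps up DNA methylation at the fork, read 18764, 19028, 18131 and 18489 with AZ2 and 3858, 3786, 4177 and 3814 with ARM165 (-2.25 ± 0.045, adjusted p = 4.36e-15). FEN1, the flap nuclease, was at 4069.5 ± 219 with AZ2 and 933 ± 54.6 with ARM165 (-2.12 ± 0.059), TK1, a salvage thymidine kinase, at 1907 ± 192 with AZ2 and 427 ± 65.8 with ARM165 (-2.16 ± 0.10), and NME1, a nucleoside diphosphate kinase, at 17288 ± 1291 with AZ2 and 3945 ± 226 with ARM165 (-2.13 ± 0.061). The kinetochore gene SPC24 and the mitotic kinase AURKB had changes of -1.96 ± 0.11 and -1.89 ± 0.07. None of these 6 genes had a value shared between the groups, as was so for 61.4% of all genes tested. The 6 were taken as the largest called falls of their lists, so this separation is no added result.

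**Figure D3:**
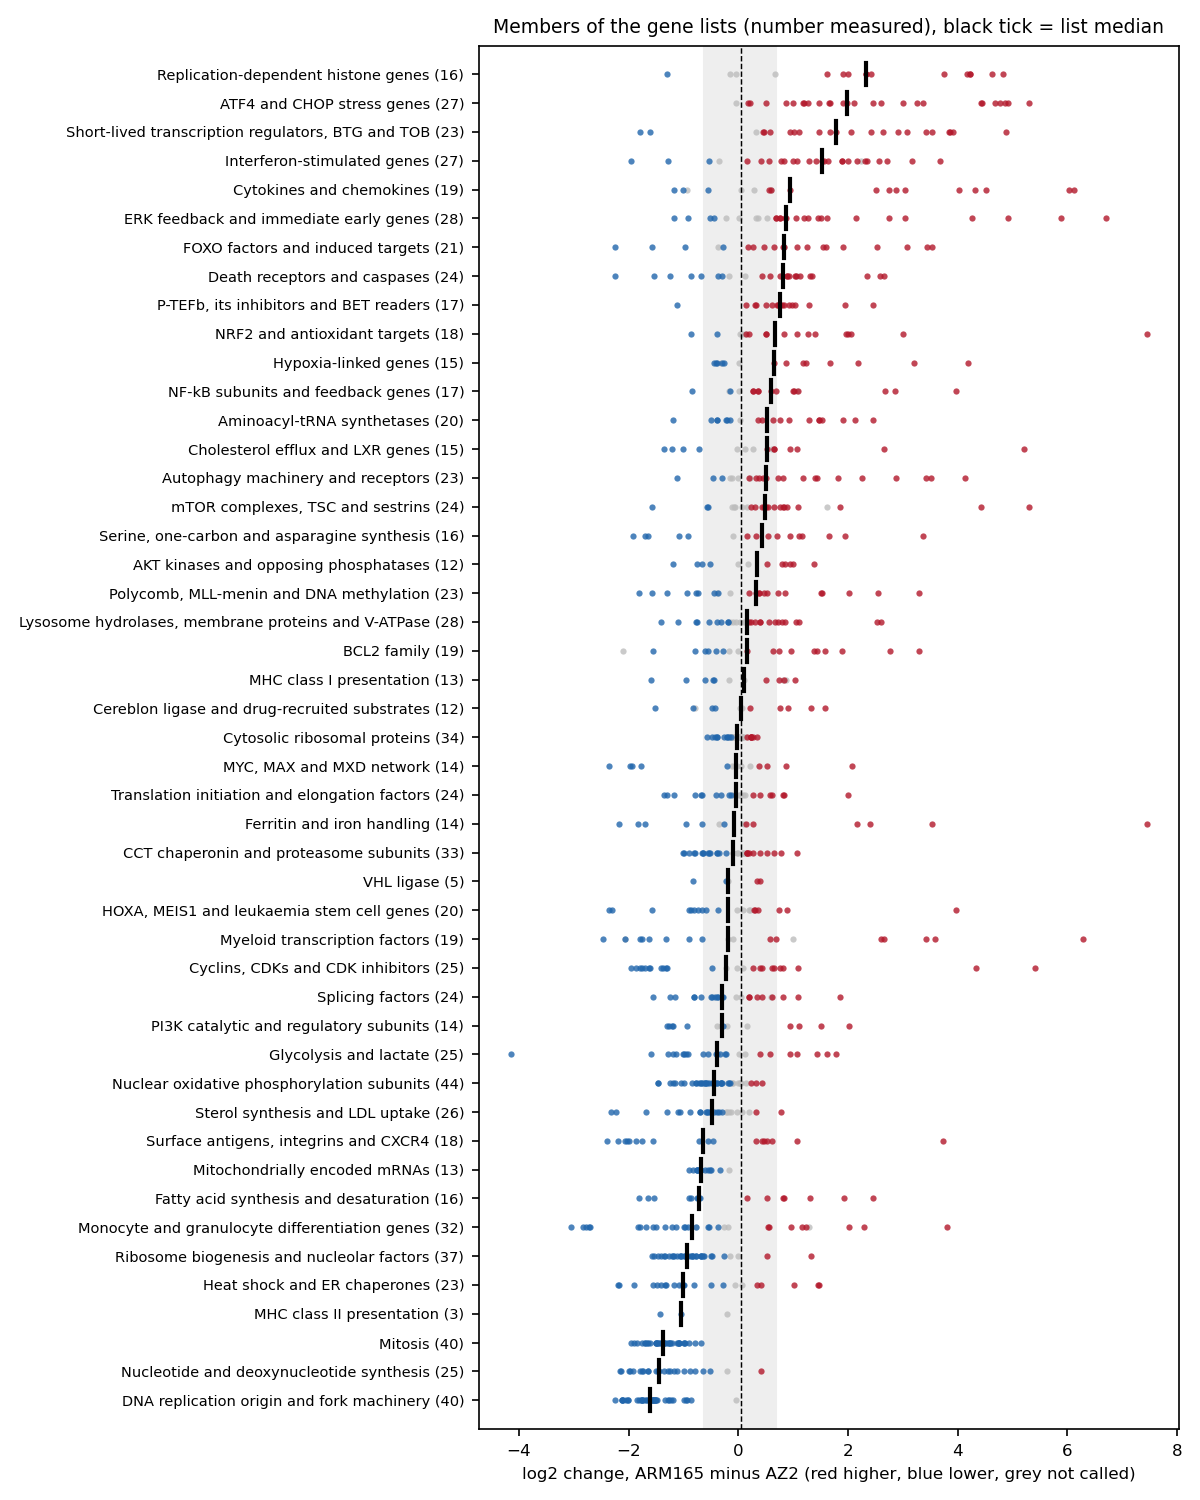
Log2 change, ARM165 minus AZ2, of each measured member of the gene lists, sorted by list median (black tick), with the dashed line at the median of all genes (0.046) and the grey band from their 25th to 75th percentile. The medians of the replication, nucleotide and mitosis lists lie to the left of 0, and those of the histone and ATF4 lists to the right.

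The promoters of UHRF1 and MCM6 are shown because both hold TTTNGCGC, the core of the E2F element of genes expressed at the start of DNA replication. UHRF1 is on the plus strand at chr19:4909894-4910143, the first of its 3 starts in the table to hold the motif. MCM6, a subunit of the replicative helicase, is on the minus strand at chr2:135876444-135876693. Capitals mark the matches on either strand, and where matches on the 2 strands overlap they run on.
UHRF1: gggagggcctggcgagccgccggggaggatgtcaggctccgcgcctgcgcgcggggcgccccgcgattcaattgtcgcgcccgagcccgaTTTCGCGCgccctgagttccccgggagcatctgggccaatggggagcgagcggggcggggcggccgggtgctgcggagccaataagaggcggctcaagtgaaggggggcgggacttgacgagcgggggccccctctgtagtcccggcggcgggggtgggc
MCM6: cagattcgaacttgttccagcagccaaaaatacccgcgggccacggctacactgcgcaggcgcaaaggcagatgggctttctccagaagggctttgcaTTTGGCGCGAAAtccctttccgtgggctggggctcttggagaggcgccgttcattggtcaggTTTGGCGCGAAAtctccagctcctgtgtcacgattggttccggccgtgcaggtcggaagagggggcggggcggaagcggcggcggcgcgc
MCM6 was at 3763 ± 51.2 with AZ2 and 1328 ± 146 with ARM165 (-1.51 ± 0.087, adjusted p = 4.24e-10), lower as UHRF1 was. The motif was in 11 of the 35 replication list members with a promoter in the table and in 1.51% of all 35116 promoters. The first is again counted by gene and the second by promoter, in unlike units.

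Among transcription factors that drive proliferation, MYB, MYC and E2F1 were lower. MYB, a transcription factor that keeps leukaemia cells immature, read 17164, 17457, 16714 and 17141 with AZ2 and 3310.5, 3057, 3379.9 and 3669.5 with ARM165 (-2.35 ± 0.055, adjusted p = 2.39e-14). MYC, the growth factor-responsive regulator of ribosome and nucleotide genes, read 23293, 25701, 25407 and 27223 with AZ2 and 6487, 6813, 6968 and 6321 with ARM165 (-1.93 ± 0.056, adjusted p = 2.16e-13). E2F1 was at 4692 ± 345 with AZ2 and 1206 ± 100.1 with ARM165 (-1.96 ± 0.071) and CCNE2, cyclin E2, at 678 ± 58.8 with AZ2 and 189.8 ± 44.5 with ARM165 (-1.86 ± 0.15). The MAX partners that oppose MYC divided: MXD1 and MXI1 were higher (2.07 ± 0.11 and 0.88 ± 0.06) and MXD3 was lower (-1.98 ± 0.11). Of the whole MYC, MAX and MXD list, 4 of 14 measured members were higher, 5 lower and 5 not called.

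Of the list of cyclins, their kinases, inhibitors and E2F factors, 10 of 25 measured members were higher, 12 lower and 3 not called (median -0.22), and the kinase inhibitors CDKN1A and CDKN2B had its largest rises. CDKN1A (p21) read 351, 352, 426 and 483 with AZ2 and 16914, 17092, 17476 and 16941 with ARM165, with 373 ± 22.6 in DMSO (5.42 ± 0.092, adjusted p = 1.00e-15). CDKN2B (p15), a low transcript with AZ2, read 43.2, 52.3, 33.1 and 16.9 with AZ2 and 745, 724, 702 and 624 with ARM165 (4.33 ± 0.31, adjusted p = 5.28e-09). Both genes showed no overlap between the groups. GDF15, a stress cytokine, rose from a low level (19.8 ± 10.2 with AZ2 and 2115 ± 161 with ARM165, 6.81 ± 0.29, adjusted p = 1.61e-11).

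Of the BCL2 family, which sets the threshold of mitochondrial cell death, 10 of 19 measured members were higher, 6 lower and 3 not called (median 0.15). The anti-apoptotic BCL2 read 9461, 9658, 8941 and 9437 with AZ2 and 3192, 3208, 3057 and 3258 with ARM165 (-1.56 ± 0.052, adjusted p = 1.17e-12). MCL1, another anti-apoptotic member, went the other way, at 10806 ± 365 with AZ2 and 32311 ± 2367 with ARM165 (1.58 ± 0.065). Of the BH3-only members that oppose them, BBC3 (PUMA) read 522, 564, 534 and 587 with AZ2 and 5199, 5389, 5612 and 5341 with ARM165 (3.29 ± 0.12, adjusted p = 3.80e-12) and BMF was at 209 ± 19.8 with AZ2 and 1422 ± 63.9 with ARM165 (2.77 ± 0.099), while BID was lower (-0.78 ± 0.081). Among death receptors and caspases, 14 of 24 measured members were higher, 7 lower and 3 not called. TNFRSF10B, the TRAIL receptor DR5 and a CHOP target, read 1196, 973, 1031 and 1079 with AZ2 and 7047, 6464, 6776 and 6773 with ARM165 (2.66 ± 0.073, adjusted p = 1.28e-13). CASP2 was lower (-1.53 ± 0.063).

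Most ribosome biogenesis factors were lower, while ribosomal protein mRNAs stood on both sides. Of 37 nucleolar factors, 33 were lower, 2 higher and 2 not called, with a median of -0.93. NOP16 was at 8984 ± 707 with AZ2 and 3019 ± 203 with ARM165 (-1.57 ± 0.068) and NHP2, of the snoRNA particles, at 4704 ± 275 with AZ2 and 1627 ± 84.9 with ARM165 (-1.53 ± 0.058). RRN3, which brings RNA polymerase I to ribosomal DNA, was higher (2223 ± 59.8 with AZ2 and 5586 ± 483 with ARM165, 1.33 ± 0.067). Of 34 cytosolic ribosomal protein mRNAs, 7 were higher, 10 lower and 17 not called, a lower share close to the 31.4% of all genes, from -0.57 for RPS16 to 0.34 for RPS18, and the median of -0.027 turned to 0.042 after quantile normalization. These genes have many pseudogenes, so each mRNA's share of reads is uncertain.

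Of translation factors, 7 of 24 measured members were higher, 10 lower and 7 not called. EIF1, which helps choose the start codon, read 39108, 41343, 41598 and 43616 with AZ2 and 161165, 162679.9, 165317 and 170015 with ARM165 (1.99 ± 0.052, adjusted p = 7.06e-14). EEF1A1, the elongation factor that brings tRNAs to the ribosome, read 1087530.0, 1103339, 1086342 and 1213634 with AZ2 and 418320.0, 441900.4, 436969.7 and 458656 with ARM165 (-1.35 ± 0.07, adjusted p = 1.17e-10). Both separated the groups fully, in opposite directions, and EEF1A1 also has many pseudogenes.

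The clearest effect of AZ2 itself was on sterol and fatty acid genes, and ARM165 lay on both sides of AZ2 at these genes. SREBP factors switch on sterol and fatty acid synthesis genes, and AKT and mTORC1 are known to raise their activity. Of the 17 genes called for AZ2 against DMSO (0.111% of 15377), 16 were lower with AZ2 (0.104%) and EGR1 was higher (0.00650%). The sterol list holds 10 of the 17 and the fatty acid list 3. Between ARM165 and AZ2, 10 of the 17 were lower with ARM165, 6 were higher and 1 was not called. Over all genes tested, 31.4% were lower and 34.5% higher. The 17 were chosen by their AZ2 values, which are also the baseline here. A gene that read too low with AZ2 by error would thus read higher with ARM165, so these counts are description only. The count of 17 was 10 with the replicate number as a block, and 9 to 11 without DMSO 1, DMSO 4, AZ2 1, AZ2 2 or AZ2 3.

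HMGCS1, which makes the HMG-CoA used for sterols, is the gene not called between the compounds. It read 695, 759.5, 649 and 809.8 with AZ2 and 692, 611, 628 and 709 with ARM165, and 1304, 1425, 1188 and 1261 with DMSO. The AZ2 and ARM165 groups overlapped, both below DMSO, and their difference was -0.14 ± 0.087, adjusted p = 0.176, with a 95% interval of -0.33 to 0.047. Quantile normalization gave -0.26 with an adjusted p of 0.0117, so this gene was called lower there. SQLE, at another controlled step, was not called either (-0.021 ± 0.098, adjusted p = 0.865).

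The 10 genes lower again with ARM165 stepped down from DMSO to AZ2 to ARM165. ACAT2, of the first thiolase step, read 2213, 2351, 2162 and 2366 with AZ2 and 849, 981, 869.9 and 989.8 with ARM165, and DMSO stood at 3337 ± 208 (-1.30 ± 0.068, adjusted p = 1.51e-10). FDPS and FDFT1, of the farnesyl steps, had changes of -1.10 ± 0.058 and -0.88 ± 0.062. The desaturases FADS1 and FADS2 had -0.86 ± 0.073 and -0.75 ± 0.08, and MSMO1, CYP51A1, MVK and IDI1 had -0.52 ± 0.089, -0.39 ± 0.09, -0.35 ± 0.10 and -0.30 ± 0.07. The values of the 2 groups overlapped for MVK alone of these 10.

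The other 6 genes read higher with ARM165 than with AZ2. For INSIG1, which retains SREBP in the ER, and SCD, which makes monounsaturated fats, ARM165 lay between AZ2 and DMSO. INSIG1 read 3455, 3419, 3008 and 3378 with AZ2 and 4159.6, 3800.0, 4246 and 4329.8 with ARM165, and 5274, 5556, 4819 and 5039 with DMSO (0.32 ± 0.063, adjusted p = 0.000352). SCD read 18890.5, 19164, 18568 and 17574 with AZ2 and 21577, 20265, 21262 and 20043 with ARM165 (0.16 ± 0.055, adjusted p = 0.0164), against 24999 ± 1845 in DMSO. That call was lost with median ratio rescaling (adjusted p = 0.0684) and without ARM165 1 (adjusted p = 0.0506). C6orf223 and CECR2, a chromatin remodelling factor, were lower with AZ2 than DMSO and well above both with ARM165. CECR2 read 88.8, 58.3, 74.4 and 55.7 with AZ2 and 458, 491, 452 and 540.3 with ARM165, with 147 ± 29.2 in DMSO (2.81 ± 0.18, adjusted p = 1.26e-09), and C6orf223 was at 84.6 ± 14.1 with AZ2 and 757 ± 71.6 with ARM165, with 202 ± 55.0 in DMSO (3.16 ± 0.19). EGR1, an immediate early factor, was raised in both comparisons, at 2196, 2036, 2241 and 2412 with AZ2 and 3422, 3887, 3307 and 3658 with ARM165 and 1506, 1509, 1640.0 and 1533 with DMSO (0.68 ± 0.066, adjusted p = 2.01e-07). AC025048.6, an unnamed locus, was listed at 0 in 3 AZ2 libraries and read 76.8, 52.9, 9.22 and 5.68 with ARM165 (4.14 ± 0.87, adjusted p = 0.000567). Its DMSO libraries read 78.2, 98.4, 10.3 and 65.0, and its change from DMSO to ARM165 was not called (-1.09, adjusted p = 0.287). CECR2, CYP51A1, MVK, FDPS and FADS1 are named from the 17, outside the rule for named genes.

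**Figure D4:**
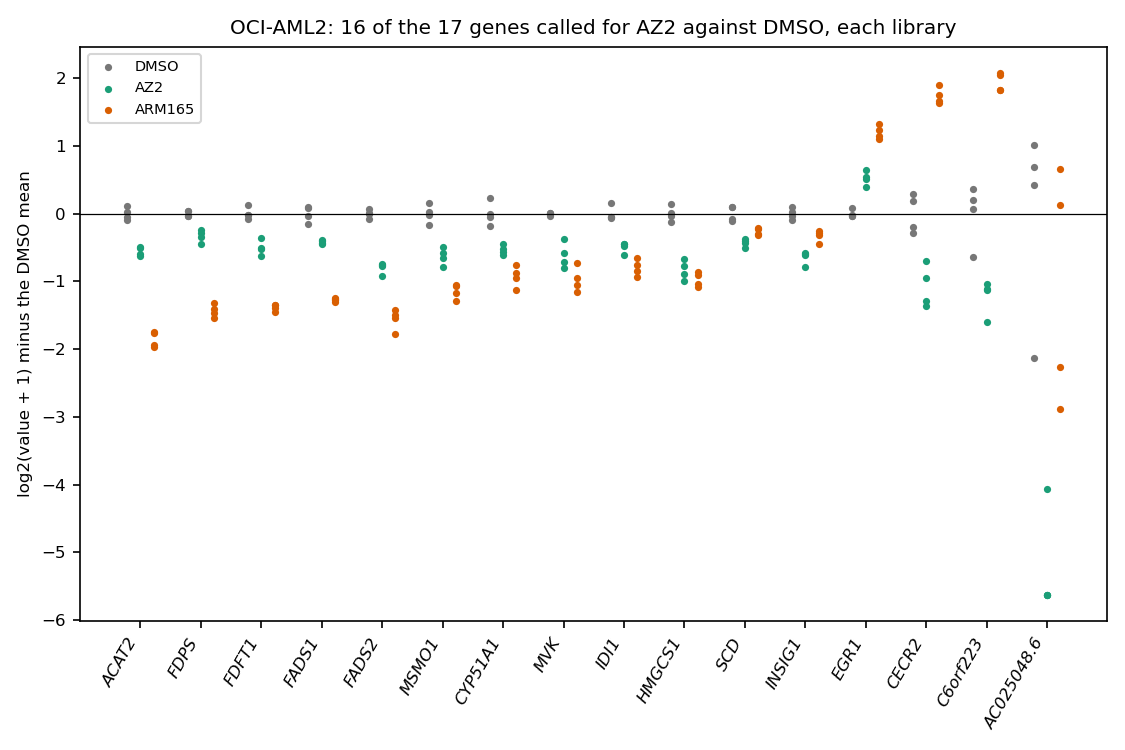
Shown are 16 of the 17 genes called for AZ2 against DMSO, with each OCI-AML2 library drawn as log2 of its level plus 1 minus the DMSO mean, 4 points per treatment. Of the genes drawn, 9 were called lower with ARM165 than with AZ2, 6 were called higher and HMGCS1 was not called. The points of the 2 groups overlap for HMGCS1 and MVK.

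Over the whole sterol list, 2 of 26 measured members were higher, 17 lower and 7 not called, and the median change was -0.48. The list median was -0.40 for AZ2 minus DMSO and -0.90 for ARM165 minus DMSO. TMEM97, a sterol-regulated membrane protein, was at 1928 ± 36.7 with AZ2 and 410.0 ± 29.7 with ARM165 (-2.23 ± 0.069). On the export side, ABCA1, which passes cholesterol to lipoproteins, read 11.5, 7.43, 6.46 and 15.1 with AZ2 and 416, 381, 350.0 and 427 with ARM165 (5.21 ± 0.33, adjusted p = 1.21e-09). The groups did not overlap for either gene. Of the efflux and LXR list, 7 of 15 measured members were higher, 4 lower and 4 not called, and the apolipoprotein APOC2 was lower (-1.35 ± 0.076).

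All 16 measured fatty acid genes were called, 7 higher and 9 lower, where 65.8% of all genes were called. ME1, which supplies NADPH, was at 1309 ± 90.4 with AZ2 and 7217 ± 599.8 with ARM165 (2.46 ± 0.087) and ACSL1, which activates fatty acids, at 3152 ± 219 with AZ2 and 12007 ± 1002 with ARM165 (1.93 ± 0.081). FASN, the synthase itself, read 1385, 1459, 1223 and 1207 with AZ2 and 397, 541, 387 and 376 with ARM165 (-1.64 ± 0.11, adjusted p = 2.42e-09), and ELOVL6, which lengthens its product, was at 764 ± 97.7 with AZ2 and 217 ± 9.32 with ARM165 (-1.80 ± 0.11). Named members of the list thus stood on both sides.

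Energy genes were mostly lower. Of 44 nuclear subunits of oxidative phosphorylation, 34 were lower and 3 higher, with a median of -0.45, from -1.47 ± 0.087 for ATP5MC1, of the ATP synthase, to 0.44 ± 0.087 for SDHC, of complex II. Of the 13 mRNAs of the mitochondrial genome, 12 were lower (median -0.67), MT-ND5 the most, at 227300.0 ± 8846 with AZ2 and 122366 ± 9147 with ARM165 (-0.90 ± 0.06). Of glycolysis genes, 7 of 25 measured members were higher, 16 lower and 2 not called. LDHA, which makes lactate, read 22757, 24783, 24136 and 25176 with AZ2 and 7699, 8143, 7981 and 8344 with ARM165 (-1.59 ± 0.054, adjusted p = 1.34e-12). HK3, a hexokinase of myeloid cells, read 153, 169, 247 and 218 with AZ2 and 11.0, 6.94, 8.07 and 15.5 with ARM165 (-4.15 ± 0.25, adjusted p = 7.26e-10), the largest of the 12 falls named by size among genes whose groups did not overlap. SLC2A3, a glucose transporter, was higher (300.5 ± 15.9 with AZ2 and 1040.2 ± 26.5 with ARM165, 1.79 ± 0.10). Of genes linked to hypoxia, 8 of 15 measured members were higher, 5 lower and 2 not called; VEGFA, the vessel growth factor and also an ATF4 target, was at 817 ± 80.0 with AZ2 and 7493 ± 269 with ARM165 (3.20 ± 0.067, adjusted p = 7.29e-15), and EPAS1, a low transcript, at 3.65 ± 1.26 with AZ2 and 82.2 ± 11.7 with ARM165 (4.19 ± 0.40).

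The myeloid programme moved in both directions, with several granule protein genes lower. Of 32 monocyte and granulocyte genes, 20 were lower, 8 higher and 4 not called (median -0.85). CTSG, the granule protease cathepsin G, read 29336, 28884, 32405 and 33668 with AZ2 and 4554, 4156, 5080.1 and 4473 with ARM165 (-2.77 ± 0.067, adjusted p = 2.95e-14). ELANE, neutrophil elastase, was at 3529.6 ± 790.2 with AZ2 and 421 ± 51.3 with ARM165 (-3.04 ± 0.14), AZU1, azurocidin, at 9702 ± 629 with AZ2 and 1429.5 ± 561 with ARM165 (-2.83 ± 0.18), RNASE2, an eosinophil ribonuclease, at 16616 ± 997 with AZ2 and 2517 ± 216 with ARM165 (-2.72 ± 0.061), and MS4A3, of the same maturation stage, at 11923 ± 487 with AZ2 and 1466 ± 129 with ARM165 (-3.03 ± 0.069). LYZ, lysozyme, was at 45416 ± 1608 with AZ2 and 19744 ± 1287 with ARM165 (-1.20 ± 0.065).

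S100A6, a calcium-binding protein, read 4127, 4091, 4350.0 and 4802 with AZ2 and 58242, 61048, 64002 and 59888 with ARM165 (3.81 ± 0.067, adjusted p = 1.35e-15), and CD86, a co-stimulatory ligand, was at 71.0 ± 13.4 with AZ2 and 346 ± 27.6 with ARM165 (2.28 ± 0.20). Of myeloid transcription factors, 7 of 19 measured members were higher, 8 lower and 4 not called. IRF1, an interferon regulatory factor, read 432, 512, 515 and 428 with AZ2 and 5595, 5844, 5644 and 5529 with ARM165 (3.59 ± 0.08, adjusted p = 1.40e-14). GATA2, of stem and progenitor cells, was at 2719 ± 196 with AZ2 and 491 ± 34.9 with ARM165 (-2.47 ± 0.093), and IRF8, of monocyte fate, at 7958 ± 215 with AZ2 and 1905 ± 130.4 with ARM165 (-2.06 ± 0.061). Genes of both myeloid lists thus stood in both directions.

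Of the HOXA, MEIS1 and leukaemia stem cell list, 6 of 20 measured members were higher, 10 lower and 4 not called. HOXA9 was higher (2408 ± 101 with AZ2 and 4039 ± 419 with ARM165, 0.74 ± 0.069) and SOCS2, a cytokine feedback gene, also (0.89 ± 0.078), while FLT3, the receptor kinase of many AML cells, read 5999, 5899.9, 5890.3 and 5621 with AZ2 and 2171, 1796, 1965 and 1981 with ARM165 (-1.57 ± 0.075, adjusted p = 5.44e-11). Every measured surface antigen and integrin of its list was called, 7 higher and 11 lower. HAVCR2 (TIM-3) was at 13.5 ± 9.38 with AZ2 and 160.1 ± 7.47 with ARM165 (3.74 ± 0.48) and CD47, the don't-eat-me signal, at 3204 ± 221 with AZ2 and 6754 ± 319.7 with ARM165 (1.08 ± 0.072). SELPLG, the selectin ligand, was at 1916 ± 155 with AZ2 and 366 ± 70.0 with ARM165 (-2.40 ± 0.12), CLEC12A, an antigen of AML stem cells, at 6897 ± 454 with AZ2 and 1499 ± 51.8 with ARM165 (-2.20 ± 0.054) and ITGB2, a leukocyte integrin chain, at 1228 ± 65.7 with AZ2 and 419 ± 27.4 with ARM165 (-1.55 ± 0.076).

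Other genes lower by size were HSH2D, an adaptor of haematopoietic cells (3209, 3304, 3609.7 and 3382 with AZ2 and 244, 226, 309 and 239.6 with ARM165, -3.73 ± 0.088, adjusted p = 2.39e-14), RXFP2, a relaxin-family receptor (5119 ± 471 with AZ2 and 502 ± 85.8 with ARM165, -3.36 ± 0.11), KCNE5, a potassium channel subunit (7690.0 ± 554 with AZ2 and 1186 ± 94.2 with ARM165, -2.70 ± 0.066), and HAL, histidine ammonia-lyase (486 ± 34.2 with AZ2 and 36.4 ± 10.8 with ARM165, -3.74 ± 0.20). Lower at lesser levels were TCTEX1D1, BMP10, SIRPD and SEMA3E, with changes of -3.74 ± 0.37, -3.65 ± 0.51, -3.54 ± 0.85 and -3.70 ± 1.23. VCX and VCX3A (-4.10 ± 0.58 and -4.06 ± 0.39), TRGC1 and TRGC2 (-3.39 ± 0.26 and -3.85 ± 0.42) and the pseudogene GSTM3P1 (-3.53 ± 0.25) have near-identical copies, and their shares of reads are uncertain. SEMA3E was uneven with DMSO (52.3, 1.89, 163 and 0), its change from DMSO to ARM165 was not called (-1.23, adjusted p = 0.397), and its fall from AZ2 did not pass the 2-fold test (adjusted p = 0.134).

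Interferon-stimulated genes, which defend against viruses, were mostly higher, with 22 of 27 measured members higher, 3 lower and 2 not called and a median of 1.52. IFI27 read 9.81, 24.6, 37.9 and 60.1 with AZ2 and 272, 429, 480.5 and 317 with ARM165 (3.68 ± 0.44, adjusted p = 2.08e-06) and IFITM3 was at 13.9 ± 4.37 with AZ2 and 136 ± 57.2 with ARM165 (3.17 ± 0.39), both low transcripts. IFITM2, a near neighbour of IFITM3 in sequence, was lower at 3152 ± 345 with AZ2 and 829 ± 184 with ARM165 (-1.95 ± 0.12), and reads may be divided between such relatives with error. The promoter of ISG15, a ubiquitin-like protein of the response, is shown because it holds GAAA followed after any 2 bases by another GAAA, the core of the interferon-stimulated response element. It is on the plus strand at chr1:1013247-1013496.
ISG15: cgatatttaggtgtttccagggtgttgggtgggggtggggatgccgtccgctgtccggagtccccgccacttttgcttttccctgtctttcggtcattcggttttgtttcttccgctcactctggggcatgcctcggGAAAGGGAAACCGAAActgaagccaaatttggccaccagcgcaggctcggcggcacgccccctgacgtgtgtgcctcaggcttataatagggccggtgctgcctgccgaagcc
ISG15 read 261, 291, 293 and 381 with AZ2 and 427, 590.2, 694 and 417 with ARM165 (0.77 ± 0.18, adjusted p = 0.00115). The motif was in 13 of the 18 list members with a promoter in the table and in 3.02% of all 35116 promoters. Here too members were counted by gene and the 3.02% by promoter, in unlike units.

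Of cytokine and chemokine genes, 12 of 19 measured members were higher, 3 lower and 4 not called. IL1A read 13.7, 0, 1.60 and 0 with AZ2 and 189, 160.1, 142 and 201 with ARM165 (6.12 ± 0.80, adjusted p = 5.29e-06) and CCL4 read 0.566, 0.747, 0 and 0 with AZ2 and 67.4, 106, 108 and 61.1 with ARM165 (6.03 ± 0.68, adjusted p = 1.05e-06), both near 0 with AZ2. Of NF-kB subunits and feedback genes, 12 of 17 measured members were higher, 2 lower and 3 not called; TRAF1 was at 192 ± 22.3 with AZ2 and 3012 ± 74.9 with ARM165 (3.97 ± 0.094), and TNFAIP3, the feedback inhibitor A20, was lower (-0.84 ± 0.083). Antigen presentation genes stood on both sides. HLA-B was higher (186 ± 70.1 with AZ2 and 365 ± 44.8 with ARM165, 1.03 ± 0.23), and NLRC5, the regulator of class I genes, was lower (2858 ± 195 with AZ2 and 950.0 ± 69.0 with ARM165, -1.59 ± 0.069), as was CD74, the class II chaperone (3511 ± 206 with AZ2 and 1311 ± 104 with ARM165, -1.42 ± 0.066). HLA genes are variable and alike, so their levels are uncertain. The class I list had 4 of 13 measured members higher, 5 lower and 4 not called and a median of 0.097 that became -0.039 after quantile normalization. The class II list had 0 of 3 measured members higher, 2 lower and 1 not called.

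Replication-dependent histone genes had 12 of 16 measured members higher, 1 lower and 3 not called and the highest median of the lists, 2.33. HIST1H2AC read 163, 113, 122 and 108 with AZ2 and 3461, 3700.2, 3397 and 3789.7 with ARM165 (4.83 ± 0.12, adjusted p = 3.61e-14) and HIST1H2BD was at 58.7 ± 18.6 with AZ2 and 1423 ± 36.7 with ARM165 (4.63 ± 0.20). Most mRNA of these genes ends without a poly(A) tail, and the libraries were made from poly(A) RNA, so these values count polyadenylated transcripts only. The genes have near-identical copies as well. P-TEFb releases paused RNA polymerase II, and of its subunits, inhibitors and BET readers, 16 of 17 measured members were higher, 1 lower and 0 not called. ELL2 and AFF4, of the super elongation complex, were higher (2.45 ± 0.22 and 1.95 ± 0.14), and AFF1, another scaffold of it, was lower (-1.12 ± 0.086).

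Chromatin genes had 13 of 23 measured members higher, 8 lower and 2 not called, a lower share near that of all genes (31.4%). The histone demethylases KDM7A (351 ± 66.0 with AZ2 and 3402 ± 438 with ARM165, 3.29 ± 0.13) and KDM6B (519 ± 53.4 with AZ2 and 3047 ± 199 with ARM165, 2.55 ± 0.17) were higher, and CBX2, a Polycomb reader, was lower (-1.80 ± 0.13). Of splicing factors, 8 of 24 measured members were higher, 13 lower and 3 not called, with the kinase CLK1 high (1.85 ± 0.086) and the core protein SNRPD1 low (-1.56 ± 0.071). Cereblon, VHL and their partners are the ligase parts most used by degraders. CRBN read 891, 804, 795 and 977 with AZ2 and 2189, 1976, 2136 and 2416 with ARM165 (1.33 ± 0.086, adjusted p = 1.65e-09). Its known drug-recruited substrates stood on both sides, with CSNK1A1 at 3615 ± 78.2 with AZ2 and 10849 ± 744 with ARM165 (1.58 ± 0.061) and IKZF1, a lymphoid and myeloid transcription factor, at 5729.6 ± 227 with AZ2 and 2009 ± 83.8 with ARM165 (-1.51 ± 0.052). Of the cereblon list, 5 of 12 measured members were higher, 4 lower and 3 not called, and of the VHL list, 2 of 5 measured members were higher, 2 lower and 1 not called.

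Few genes could be shown to be alike between the compounds. For 603 genes (3.92%) the change was not called and its 95% interval lay within 0.25 of 0 on the log2 scale. The most abundant of these were ribosomal protein mRNAs. RPS23 was at 243955 ± 15646 with AZ2 and 225972 ± 11454 with ARM165, with an interval of -0.25 to 0.027, while that of RPS24 ran from -0.23 to 0.036, of RPL13 from -0.054 to 0.23, of RPL8 from -0.23 to 0.075 and of RPL12 from -0.18 to 0.095. Rescaling the libraries moved some of them past the threshold: RPS23 (-0.11) and RPL13 (0.23) were called after quantile normalization, and RPS23 (-0.16) and RPS24 (-0.15) after median ratio rescaling. A missed threshold elsewhere does not show that the compounds act alike.

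The change between the compounds was partly shared with MOLM14, the other AML line. Over 14287 genes measured in both lines, 1 fit of all 24 libraries called a difference between the lines' ARM165 minus AZ2 changes at 6252 (43.8%), with the OCI-AML2 change above the MOLM14 change at 3669 (25.7%) and below it at 2583 (18.1%). Changes called in opposite directions, with the difference called too, were found at 681 genes (4.77%), 402 of them (2.81% of the genes) higher with ARM165 in OCI-AML2 and 279 (1.95%) lower; in MOLM14 alone 69.8% of the genes were called. Across genes the changes of the 2 lines had a Pearson r of 0.71 and a Spearman rho of 0.70, a description over genes that are not independent. Because the tables of the lines were scaled apart, levels were not compared between them.

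Some of the genes named above had a larger log2 rise in OCI-AML2 and others a smaller one, which does not tell the level each started from. DDIT4 changed by 1.81 ± 0.089 in MOLM14, a difference of 3.50 ± 0.13, adjusted p = 1.14e-15, and CDKN1A by 2.86 ± 0.075, a difference of 2.56 ± 0.11, adjusted p = 7.93e-15. Within MOLM14, DDIT4 was at 6043 ± 356 with AZ2 and 21159 ± 1111 with ARM165. CDKN1A was at 6264 ± 387 with AZ2 and 45344 ± 2398 with ARM165 there. S100A6 changed by 1.69 ± 0.067 in MOLM14 (2.12 ± 0.095, adjusted p = 2.72e-14). HMOX1 and PPARG rose less in OCI-AML2 than in MOLM14, with differences of -0.97 ± 0.22, adjusted p = 0.000882 and -2.81 ± 0.76, adjusted p = 0.00431. Within MOLM14, PPARG was at 3.20 ± 6.41 with AZ2 and 1162 ± 63.0 with ARM165. For JUN the MOLM14 change was 5.82 ± 0.085, and the difference was not called (0.068 ± 0.12, adjusted p = 0.677). The fall of PIK3CG was larger in OCI-AML2 than in MOLM14 (-0.42 ± 0.062 there; difference -0.88 ± 0.088, adjusted p = 2.21e-08), and the rise of PIK3R5 was smaller (1.83 ± 0.081; -0.74 ± 0.11, adjusted p = 1.28e-05). AKT1 and AKT2 fell less in OCI-AML2 than in MOLM14, where their changes were -1.06 ± 0.063 and -1.02 ± 0.066. The difference for AKT2 was lost under quantile normalization (adjusted p = 0.053).

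The line difference was called for 15 of 26 sterol and 12 of 16 fatty acid list members, beside 43.8% of all genes. SCD and INSIG1 were higher with ARM165 than AZ2 in OCI-AML2 and had changes of -1.49 ± 0.051 and -1.29 ± 0.06 in MOLM14, with differences of 1.65 ± 0.072, adjusted p = 1.99e-14 for SCD and 1.61 ± 0.085, adjusted p = 4.18e-13 for INSIG1. The signs were thus opposite in the lines for both genes. FADS2 was lower in both, far more in MOLM14 (-3.22 ± 0.13; difference 2.47 ± 0.19, adjusted p = 2.04e-10).

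Named by the size of the line difference were CLDN1 (5.41 ± 0.50 in MOLM14; difference 5.67 ± 0.70, adjusted p = 5.72e-07) and CPXM1, a carboxypeptidase-like protein (34.2, 2.99, 34.3 and 36.1 with AZ2 and 396, 282, 315 and 309.8 with ARM165; -1.60 ± 0.45 in MOLM14; difference 5.57 ± 0.63, adjusted p = 1.60e-07). TMTC1, an ER protein, was not called in OCI-AML2 (0.08 ± 0.11), and changed by 6.29 ± 0.53 in MOLM14 (difference -6.21 ± 0.74, adjusted p = 3.35e-07). Within MOLM14 it was at 6.54 ± 9.80 with AZ2, low and uneven, and at 351 ± 80.8 with ARM165. The remaining 7, INO80B-WBP1, AC010422.6, TICAM2, XCR1, AC025283.2, UTP14C and AC211476.3, had differences of 5.24 to 7.36 in size and read unevenly between libraries of 1 group. With AZ2, INO80B-WBP1 read 0.0000215, 277, 0.0528 and 172, and AC025283.2 read 468, 5.51, 0.000256 and 0.492 with ARM165. INO80B-WBP1 is a read-through of neighbouring genes and UTP14C a near copy of UTP14A, and such values depend on how reads were shared out.

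**Figure D5:**
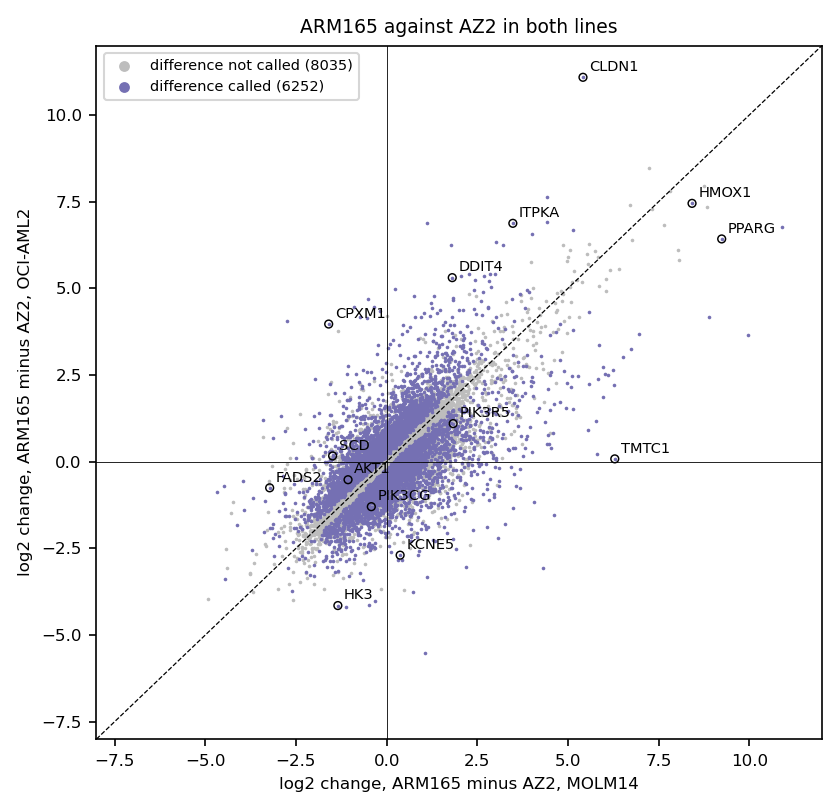
Log2 change, ARM165 minus AZ2, of 14287 genes in OCI-AML2 (y axis) and MOLM14 (x axis), with genes called for a line difference coloured (6252). Genes spread along the diagonal, and SCD lies above 0 on the y axis and below 0 on the x axis.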

How the data were processed

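RNA of OCI-AML2 and MOLM14 cells was sequenced after 24 h with DMSO, AZ2 or ARM165, 4 libraries a group. Per the labels' protocols, libraries were stranded poly(A) TruSeq libraries. kallisto did the quantification, per the submitters' processing notes, which state no version. For the build, the annotation and how values were scaled: not given in the sources used here. The deposited signal values are normalized estimated reads per gene symbol, 35587 symbols, in 1 table per line, scaled separately, and 0 columns were left out. They are not whole counts, so no count model was run.

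The values were tested as log2(value + 1) with limma 3.58.1 in R 4.3.3: genes with at least 10 in at least 4 of the 12 OCI-AML2 libraries, 1 mean per group, trended variance, 2-sided, Benjamini-Hochberg over all 15377 genes, called at an adjusted p under 0.05. The log2 scale with a pseudocount understates changes of low genes. Changes past 2-fold used treat. Line differences were fitted over all 24 libraries. The code was tested on simulated data.

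Named genes were the gamma enzyme and AKT genes; the 12 largest rises and 12 largest falls among called, non-overlapping genes with a mean of at least 50; the 6 largest each way with a mean of at least 5000; up to 2 rises and 2 falls per list; up to 12 genes called for AZ2 by smallest adjusted p; the 6 most abundant of those with a narrow interval; and the 5 largest line differences each way. PIK3CB, PIK3CD, MYC, ATF4, DDIT3, MCL1, LYZ, SQLE and RPA2 were added after their values were seen. Some genes that these rules take, and 1 list, are not reported here. The comparison and the 53 gene lists were chosen with earlier results of these data known. Lists were described by counts and medians with no set test. Promoters came from RefSeq on GRCh38.p14, 35116 in all. Alternatives were a pseudocount of 5, no filter, quantile and median ratio scaling, a replicate block, the 8 AZ2 and ARM165 libraries alone, and leaving out each library. Of the symbols, 35403 (99.5%) matched GENCODE. Figures were drawn with matplotlib 3.10.9.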

Additional observations from a re-analysis of the deposited data

Results flagged for a closer look

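Among 201 genes named in the text, each tested in the 4 AZ2 and the 4 ARM165 libraries, 25 of 402 groups (6.22%) held 1 library whose gap to the nearest other exceeded Dixon's 95% critical share of the group's range. Chance flags about 1 in 20 groups. AZ2 3 held 9 of the 25, all but HSPA5 and AC025048.6 as the lowest AZ2 value. Without it the comparison of the compounds gave 9788 calls instead of 10124, and without AZ2 1, AZ2 2 or AZ2 4 it gave 9781, 9755 and 9808. The drop is thus not particular to AZ2 3. In ARM165 1, PIK3CG read 1180.2 where the others read 1257 to 1259.7, AC025283.2 read 468 where the others read 0.000256 to 5.51 and ZFP36L1 read 849.6 where the others read 938 to 947. In the same library, SNRPD1 read 3000.0 where the others read 3294 to 3308. In ARM165 2, FASN read 541 where the others read 376 to 397 and CD47 read 6280.1 where the others read 6859.9 to 6977. In ARM165 4, ELOVL6 read 203 where the others read 221 to 224. In AZ2 1, IL1A read 13.7 where the others read 0 to 1.60. In AZ2 2, RXFP2 read 5815 where the others read 4777 to 4943, CPXM1 read 2.99 where the others read 34.2 to 36.1 and TNFAIP3 read 2348 where the others read 2139 to 2172. In AZ2 3, IDI1 read 2806 where the others read 3074 to 3125, AC025048.6 read 1.94 where the others were listed at 0 and HSPA5 read 60262 where the others read 56769.9 to 57034. In the same library, PSMC6 read 2463 where the others read 2685 to 2727, ACSL1 read 2827 where the others read 3220.3 to 3293 and MT-ND5 read 214136 where the others read 230368 to 233091. In the same library, IRF8 read 7639 where the others read 8029.8 to 8092, CD47 read 2877 where the others read 3281 to 3362 and LYZ read 43030.4 where the others read 45877 to 46402. In AZ2 4, AC010422.6 read 18.9 where the others were listed at 0, EEF1A1 read 1213634 where the others read 1086342 to 1103339 and ELOVL6 read 909 where the others read 699 to 726. In the same library, ASNS read 4026 where the others read 3665 to 3704 and MCM6 read 3687 where the others read 3784 to 3796.

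The ARM165 minus AZ2 change differed between OCI-AML2 and MOLM14 by limma's test of the difference itself at 6252 of 14287 genes. Of the gamma enzyme and AKT genes, the difference (OCI-AML2 change minus MOLM14 change, log2) was -0.88 for PIK3CG, -0.74 for PIK3R5, 0.54 for AKT1 and 0.35 for AKT2. Of the sterol and fatty acid genes called for AZ2 against DMSO, it was 2.47 for FADS2, 1.61 for INSIG1, 0.69 for HMGCS1, 0.39 for FDFT1, 1.65 for SCD, 0.76 for IDI1, 0.60 for CYP51A1, 0.95 for MVK, 0.24 for FDPS and 1.35 for FADS1, all above 0. Of the other genes called for AZ2 against DMSO, it was 0.79 for EGR1, 0.97 for C6orf223 and 4.68 for AC025048.6. The genes named by size had 6.80 for INO80B-WBP1, 5.76 for AC010422.6, 5.67 for CLDN1, 5.57 for CPXM1, 5.36 for TICAM2, -7.36 for XCR1, -6.56 for AC025283.2, -6.21 for TMTC1, -5.57 for UTP14C and -5.24 for AC211476.3. The calls for FDPS, AKT2, AC025048.6, INO80B-WBP1 and UTP14C were lost under at least 1 other scaling, filter or set of libraries.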

How the results depend on the processing

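Calls between ARM165 and AZ2 numbered 10020 to 10193 under the other pseudocount, filter, scalings, block and set of libraries, and 9668 to 10229 with each library left out, and none turned direction. Past 2-fold, the ranges were 2172 to 2371 and 2102 to 2359. ARM165 against DMSO gave 9726 to 10111 calls with libraries left out, and the line difference 5903 to 6398. Of called genes, 52.4% were higher, against 48.0% after quantile normalization and 49.9% after median ratio rescaling. The 17 calls of AZ2 against DMSO became 10 with the replicate block and ranged from 9 to 17 with 1 library left out (9 without DMSO 1 or AZ2 2, 10 without DMSO 4 or AZ2 3, 11 without AZ2 1); without DMSO 2, which stands apart on the second principal component of the 12 libraries, there were 14. The cause was not tested.

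Replicate numbers are shared across groups, but same-numbered AZ2 and ARM165 libraries deviated together with correlations of only 0.021, 0.013, 0.017 and 0.0094 over all genes. Such values, mostly spread of single genes, cannot show whether same-numbered libraries were handled together. DMSO libraries were not part of this comparison. With the block, 10020 genes were called between ARM165 and AZ2, 2260 past 2-fold, and 6148 for the line difference.

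Values that turned sign belonged to changes that were not called. After quantile normalization they were 0.079 for RPS24, 0.020 for RPL8, 0.078 for RPL12, -0.031 for TMTC1 and 0.037 for the line difference of PIK3R6. With 1 library left out, TMTC1 ranged from -0.015 to 0.14, SQLE from -0.073 to 0.049 and the PIK3R6 line difference from -0.32 to 0.17. List medians turned sign for cytosolic ribosomal proteins and MHC class I, with quantile normalization only. That check covered the other pseudocount, filter, scalings, block and set of libraries, and not the fits with 1 library left out. Differences of a gene near 10 estimated reads were limited by depth: no interval was given for single libraries, since the deposited values are scaled and kallisto shares reads between transcripts.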
